A study of Saccharomyces cerevisiae with 232 samples.

Results

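The 13 sense codons that begin with U were followed across yeast strains that each lack 1 gene for a tRNA modification, out of the 61 sense codons in the deposited codon table. They were chosen by their first letter alone, with no measured value, and they encode phenylalanine (UUU and UUC), leucine (UUA and UUG), serine (UCU and UCC, and also UCA and UCG), tyrosine (UAU and UAC), cysteine (UGU and UGC) and tryptophan (UGG). The tested libraries came from 57 deletion strains, 56 of them with 2 libraries and kti13D with 1, and the 13 wild-type libraries were BY4741, the parent that all strains share. Each strain carries a kanMX cassette in place of the gene it is named after (trm7D lacks TRM7), and it was grown in YPD at 30 °C and given cycloheximide at 100 µg/mL for 30 s before lysis, as was wild type. The labels do not state whether the libraries of a strain came from separate cultures or clones, so the p-values below measure only the spread between libraries. In all 57 strains, the footprint density of the deleted gene was below that of each of 14 wild-type libraries.

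Ribosome profiling sequences the stretch of mRNA that a ribosome covers, and so shows which codon lies in the A site, where the incoming tRNA is decoded, in the P site, which holds the tRNA of the growing chain, and in the E site, from which the used tRNA leaves. A codon is found more often in a site when ribosomes stay there longer, when the mRNAs that hold it are translated more, or when other codons are found less often, because frequencies within a library are shares of a whole. Bases of tRNA are chemically altered after transcription. Alterations in the anticodon loop act on decoding directly, while those in the body of the tRNA act on its fold and stability. The tRNAs that read codons beginning with U have A at position 36 (the base that pairs with the codon's U), and base 37 next to it is nearly always modified, by wybutosine in tRNA-Phe and by isopentenyladenosine in several tRNAs with A at this position.

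The 9 tRNA species that read these codons come from 60 nuclear tRNA genes in RefSeq (assembly R64), and 1 gene of each is printed because the loop bases bear on which enzyme can act. Introns were removed. The sequences run 5′ to 3′ and the capitals mark positions 32 to 38, the anticodon loop, with the anticodon at positions 34 to 36 in its middle.
Phe-GAA: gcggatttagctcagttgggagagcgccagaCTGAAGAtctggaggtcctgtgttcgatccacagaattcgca
Leu-UAA: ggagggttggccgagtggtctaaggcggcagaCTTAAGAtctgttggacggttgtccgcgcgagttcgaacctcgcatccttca
Leu-CAA: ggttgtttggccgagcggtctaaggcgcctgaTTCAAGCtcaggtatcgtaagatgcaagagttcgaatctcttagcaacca
Ser-AGA: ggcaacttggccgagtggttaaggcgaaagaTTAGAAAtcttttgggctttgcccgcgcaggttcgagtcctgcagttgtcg
Ser-UGA: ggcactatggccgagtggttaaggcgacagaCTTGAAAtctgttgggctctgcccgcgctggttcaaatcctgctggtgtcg
Ser-CGA: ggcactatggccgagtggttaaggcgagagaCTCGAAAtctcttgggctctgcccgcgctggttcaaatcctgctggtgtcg
Tyr-GUA: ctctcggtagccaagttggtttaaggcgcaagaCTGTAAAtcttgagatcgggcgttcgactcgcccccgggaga
Cys-GCA: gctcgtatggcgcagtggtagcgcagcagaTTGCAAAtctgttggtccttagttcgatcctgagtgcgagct
Trp-CCA: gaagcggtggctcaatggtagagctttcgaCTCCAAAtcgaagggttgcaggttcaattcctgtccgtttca
The printed genes lie at chrII:36398-36488 (plus strand, Phe-GAA, 1 of 10 genes), chrII:9583-9666 (plus, Leu-UAA, 1 of 7) and chrI:181141-181254 (plus, Leu-CAA, SUP56, 1 of 10). Those of serine lie at chrI:182522-182603 (minus, Ser-AGA, 1 of 11), chrV:288443-288524 (minus, Ser-UGA, SUP19, 1 of 3) and chrIII:227942-228042 (plus, Ser-CGA, SUP61, the only gene). Tyr-GUA is SUP2 at chrIV:946312-946400 (plus, 1 of 8), Cys-GCA lies at chrII:643007-643078 (minus, 1 of 4) and Trp-CCA at chrVII:287350-287455 (minus, 1 of 6). Base 37 is G in the tRNAs for phenylalanine and leucine and A in those for serine, tyrosine, cysteine and tryptophan. Position 26, where Trm1 makes dimethylguanosine, is G in all of them except Cys-GCA, which has A, and Trp-CCA, which has U.

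Each value below is the authors' log2 ratio of a codon's frequency at a site to that in wild type, so that 0 is the wild-type mean and −1 is a fall by a factor of 2. Changes are estimates ± SE from limma, with p-values adjusted jointly over all 61 codons, 57 strains and 3 sites by the Benjamini-Hochberg method, and a change was called below 0.05. The authors' values fall into 3 processing sets, each relative to wild-type libraries of its own, and a named call is marked where it was lost once the set was a term of the fit. Wild-type libraries 7 to 9 were the inferred reference of 39 of the 57 strains, and an error in them moves all 39 together. Counts of strains and medians over strains are therefore not independent evidence. Among the 741 pairs of a codon beginning with U and a strain, 80 were called higher and 95 lower at the A site. The balance turned to 123 higher and 106 lower when the second library of every strain was left out. The 80 and 95 calls are 23.6% of the pairs, where 21.9% of the pairs over all 61 codons were called (12.1% higher and 9.81% lower). Codons beginning with A had 17.8%, those with C 25.4% and those with G 20.9% called, so the share among codons beginning with U lay within the range of the other letters. The median size of a change was 0.042 among these pairs, and 68 pairs moved by more than 0.2, of which 65 were called. Calls were made in 44 of the 57 strains. The remaining 13 strains, with no codon beginning with U called at the A site, were dus3D, isu1D, isu2D, pus1D, rit1D, sap185D, tad1D, trm11D, trm140D, trm3D, trm732D, tyw4D and urm1D. Over all 61 codons at that site, isu1D, rit1D and trm732D had 0 calls and isu2D, pus1D and trm11D had 1 each. The others on this list had from 3 (trm3D) to 9 (urm1D). Strains are named below where they stand on a list of 80 enzyme and tRNA pairs, or held the largest called rise or fall of a codon, and any other strain named with a value was chosen after its values were seen.

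Both leucine codons fell most in tan1D, which lacks a factor needed for acetylcytidine in the D arm of leucine and serine tRNAs. UUA had −1.14 and −1.45 in the tan1D libraries, against a lowest of −0.09, a median of −0.0039 and a highest of 0.08 in the wild-type libraries. UUG had −1.15 and −1.39 in tan1D, against −0.06, 0.003 and 0.04 (lowest, median, highest) in wild type. The tan1D libraries lay far below every wild-type library at both codons. The change was −1.29 ± 0.0636 at UUA (adjusted p = 1.82e-28) and −1.27 ± 0.0384 at UUG (adjusted p = 9.51e-42), so the A-site frequency of UUA fell by 59.1% and that of UUG fell by 58.5%, as computed from the log2 changes. At the P site both codons moved the other way in tan1D, by 0.25 ± 0.0255 for UUA and 0.31 ± 0.0234 for UUG (adjusted p = 1.73e-12 and 1.99e-18). At the E site UUA was lower by a much smaller amount, −0.08 (adjusted p = 0.000345), and UUG was at −0.04 and not called.

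UUA was called lower at the A site in 5 of the 57 strains. Besides tan1D, these were 4 strains that each lack an enzyme acting on the body of many tRNAs. In pus4D, which lacks the synthase for pseudouridine in the T loop, UUA had −0.72 and −1.10, a change of −0.91 ± 0.0636 (adjusted p = 3.47e-20). In trm1D it had −0.85 and −0.59, a change of −0.72 ± 0.0636 (adjusted p = 2.28e-15). In dus2D and dus1D, which lack dihydrouridine synthases of the D loop, it had −0.39 and −0.48, and −0.20 and −0.29. The libraries of these 4 strains lay below every wild-type library. UUG was also lower in pus4D (−0.32), dus2D (−0.21) and trm1D (−0.17), while in dus1D it was at −0.02 and not called. The difference UUA minus UUG was −0.59 ± 0.0386 in pus4D, −0.55 in trm1D, −0.23 in dus2D and −0.23 in dus1D, all called over 29 pairs of synonymous codons in all strains (adjusted p = 2.48e-22, 8.67e-21, 2.19e-06 and 2.19e-06). In tan1D, where both codons fell together, that difference was not called. It was −0.0085 and not called in dus3D, which lacks a further dihydrouridine synthase. In trm2D it was −0.13 (adjusted p = 0.00973), a call that was lost with the processing set as a term (adjusted p = 0.0592).

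UUA rose in strains without Elongator, the complex that starts the side chain on the wobble uridine at position 34 of Leu-UAA and Ser-UGA, or without its regulators. At the A site UUA was called higher in 7 of the 57 strains, and 6 of these were among the 9 such strains. The rise in kti12D, which lacks an Elongator regulator, was the largest of UUA in any strain, with 0.33 and 0.36 in its libraries and a change of 0.35 ± 0.0636 (adjusted p = 1.71e-05). The subunit deletions elp4D, elp6D and elp5D gave 0.32, 0.31 and 0.25. In elp2D (0.20) and elp1D (0.18) the call was lost when the processing set was a term of the fit (adjusted p = 0.0754 and 0.0914), and that in elp1D also without wild-type library 9 (0.17, adjusted p = 0.0533). The values in elp3D, which lacks the catalytic subunit, were 0.15 and 0.16 and in kti13D 0.19, above every wild-type library but not called (adjusted p = 0.0734 and 0.118), and in kti11D they were 0.11 and 0.07 (adjusted p = 0.37). When each library was centred on its median codon, elp3D was called (0.18, adjusted p = 0.0275). UUG was called in none of the 9 strains and its changes ran between −0.10 and 0.05. UUA minus UUG was higher in all 9, between 0.18 in kti11D and 0.32 ± 0.0386 in elp4D (adjusted p = 0.000116 and 1.67e-10). This difference was also higher in sit4D, which lacks a phosphatase that acts with Elongator, at 0.26 (adjusted p = 6.74e-08), although UUA alone was at 0.11 there and not called. Outside these strains it was higher in trm112D (0.19, adjusted p = 0.000113), and in trm12D (0.12) and trm7D (0.11), calls that were lost with the processing set as a term (adjusted p = 0.0927 and 0.0726). The same difference in the codon frequency computed from footprint densities, described below for phenylalanine, was 0.28 in trm112D, 0.02 in trm12D and 0.20 in trm7D. UUG rose most in pus3D, with 0.10 and 0.17 (change 0.14 ± 0.0384, adjusted p = 0.00663).

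All 4 serine codons fell at the A site in mod5D, which lacks the enzyme for isopentenyladenosine at position 37, in tan1D and in trm1D. In mod5D the changes were −0.30 at UCU, −0.32 at UCC, −0.32 at UCA and −0.38 at UCG, with SEs between 0.0161 and 0.0414. UCG had −0.35 and −0.40 in the mod5D libraries, against −0.04, 0.0046 and 0.03 (lowest, median, highest) in wild type (adjusted p = 6.02e-23). In tan1D the 4 codons fell by 0.19 to 0.26, well short of the leucine codons in the same strain. At the P site all 4 were called higher in tan1D, by 0.08 to 0.16. In mod5D UCA (0.07) and UCG (0.12) were called higher there, and UCU (−0.09) and UCC (−0.08) lower. These P-site calls are from the fit without the processing set as a term. The largest fall of UCG at the A site was in trm1D, with −0.40 and −0.36 in its libraries and a change of −0.38 ± 0.0233 (adjusted p = 2.76e-23), next to that of mod5D. The codon UCA fell less than UCG in trm1D (difference UCA minus UCG 0.22 ± 0.0268, adjusted p = 4.53e-10).

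UCU and UCC, which share the Ser-AGA tRNA, moved in the same direction in each of the 5 strains in which both were called. UCU fell most in trm112D, which lacks the partner protein of several methyltransferases and has libraries of 1.77 M and 0.81 M reads, among the shallowest, with −0.41 and −0.42, against −0.09, 0.0066 and 0.08 (lowest, median, highest) in wild type (change −0.41 ± 0.0414, adjusted p = 4.77e-13). UCC fell most in mod5D. Both rose most in pus3D, which lacks the synthase for pseudouridine at the end of the anticodon loop, by 0.23 ± 0.0414 at UCU and 0.13 ± 0.0311 at UCC (adjusted p = 1.18e-05 and 0.000838). UCA rose most in sit4D (0.15, adjusted p = 1.91e-11) and UCG in trm4D, which lacks the enzyme for 5-methylcytidine (0.11, adjusted p = 0.000237). The methyltransferase Trm44 makes a methylated uridine in the variable arm of serine tRNAs. In trm44D, UCG was at −0.10 (adjusted p = 0.000439) and UCC at −0.09, a call that was lost with the processing set as a term (adjusted p = 0.128) and without the second library (−0.07, adjusted p = 0.0668), while UCU (−0.05) and UCA (−0.02) were not called at the A site. At the P site all 4 serine codons were lower in trm44D, between −0.19 and −0.08, and the call of UCG there was lost with the processing set as a term (adjusted p = 0.0784). At the A site UCA was called higher in 3 Elongator strains, elp2D and elp4D (0.07 each) and kti12D (0.09), and UCG in none. Trm140 makes 3-methylcytidine at position 32, which is C in Ser-UGA and Ser-CGA and U (written T) in the printed Ser-AGA gene. At the A site trm140D changed UCA by 0.04 and UCG by 0.05, above every wild-type library but not called. At the P site UCG was called higher in trm140D (0.15, adjusted p = 7.07e-06) and UCA was not called (0.04). At the E site UCA was called lower (−0.06, adjusted p = 0.0108) and UCG was not called (−0.02). These P-site and E-site calls are from the fit without the processing set as a term.

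The phenylalanine codons rose in 3 of 4 strains of the wybutosine pathway, which builds the bulky base at position 37 of tRNA-Phe in steps. UUU had 0.27 and 0.45 in tyw3D, 0.36 and 0.27 in tyw1D, and 0.28 and 0.24 in trm12D, against −0.08, −0.0102 and 0.11 (lowest, median, highest) in wild type. The changes were 0.36 ± 0.0457, 0.32 and 0.26 (adjusted p = 1.97e-09, 7.88e-08 and 6.14e-06). For UUC they were 0.31 ± 0.0378, 0.25 and 0.20 (adjusted p = 7.08e-10, 3.15e-07 and 2.68e-05). The libraries of the 3 strains lay above every wild-type library at both codons. In tyw4D, which lacks the enzyme of the last steps, UUU had −0.02 and −0.0027 and UUC −0.04 and −0.03 at the A site, inside the wild-type range. At the P site, by contrast, tyw4D was called higher, by 0.27 ± 0.0403 at UUU and 0.19 ± 0.0387 at UUC (adjusted p = 1.44e-07 and 0.000147), and so were the other 3 strains, by 0.17 to 0.35 at UUU and 0.19 to 0.30 at UUC. At the E site UUU was called in none of the 4, and UUC in tyw3D, at −0.05 (adjusted p = 0.0167), a call that was lost with the processing set as a term (adjusted p = 0.0883).

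At the A site UUU and UUC parted in trm7D, which lacks the methyltransferase of riboses 32 and 34, and in rtt10D, which lacks its partner for position 34. UUU had 0.20 and 0.25 in trm7D and 0.18 and 0.17 in rtt10D (adjusted p = 9.56e-05 and 0.00297), above every wild-type library. UUC had −0.05 and 0.0015 in trm7D and 0.04 and −0.05 in rtt10D, inside the wild-type range. UUU minus UUC was 0.25 ± 0.0211 in trm7D and 0.18 in rtt10D (adjusted p = 7.42e-17 and 8.33e-11). In trm732D, which lacks the partner for position 32, neither UUU (0.0064) nor UUC (−0.03) was called. The footprint densities of genes give a codon frequency that can be set beside these values, as the sum over genes of density times codon count. In trm7D it was 0.16 for UUU and −0.07 for UUC relative to wild type, a difference of 0.22, and in rtt10D 0.03, −0.0012 and 0.03. The computed difference was thus close to the observed one in trm7D and far smaller than it in rtt10D, and its part in the A-site values was not tested. For the other synonymous pairs of trm7D the computed and observed differences lay further apart or differed in sign. They were 0.29 and 0.02 for UAU minus UAC, −0.23 and 0.06 for UGU minus UGC, and 0.20 and 0.11 for UUA minus UUG. For UCU minus UCC they were −0.0051 and 0.04, and for UCA minus UCG −0.05 and 0.04. At the E site UUU was at −0.0053 in trm7D, which is inside the wild-type range. At the P site trm7D was higher at both codons, by 0.12 at UUU and 0.13 at UUC (adjusted p = 0.0307 and 0.00997), and in rtt10D UUC was called (0.11, adjusted p = 0.0295) and UUU was not (0.07, adjusted p = 0.21). With the processing set as a term the calls of UUU in trm7D and UUC in rtt10D were lost (adjusted p = 0.0747 and 0.0733). The difference between the codons was not tested at the P site.

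Both phenylalanine codons fell most in trm1D, by 0.33 at UUU and 0.28 at UUC (adjusted p = 2.82e-08 and 7.74e-09), and nearly as much in trm112D, by 0.32 and 0.27. For UUU in trm112D the frequency computed from footprint densities went the other way, at 0.20.

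At the A site UAU and UAC, both read by Tyr-GUA, were each called lower in more strains than higher. UAU was lower in 20 and higher in 3 of 57 strains and UAC lower in 19 and higher in 4, where 9.81% of pairs over all codons were lower. The falls were mostly small, with a median change of −0.03 for UAU and −0.02 for UAC over the 57 strains. They include all 9 Elongator strains at UAU, with Elongator libraries between −0.12 and −0.05, and of these calls that in elp2D was lost with the processing set as a term (adjusted p = 0.102). With that term 15 of the 20 falls of UAU and 14 of the 19 of UAC kept their call. The wild-type values of UAU were also the least spread among the A-site values after UCA (SD 0.0146, against 0.0961 for UGG), so that smaller changes were called. The largest falls were in sit4D for UAU, with −0.22 and −0.23 (change −0.22 ± 0.0203, adjusted p = 6.19e-15), and in mod5D for UAC, with −0.29 and −0.35 (−0.32 ± 0.0214, adjusted p = 2.78e-21). UAU fell less than UAC in mod5D (−0.20, difference UAU minus UAC 0.12 ± 0.0204, adjusted p = 2.11e-06). At the P site both were called higher in mod5D, UAU by 0.13 and UAC by 0.16, in the fit without the processing set as a term.

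Tyr-GUA has U at position 35, in the middle of its anticodon, which Pus7 converts to pseudouridine. In pus7D UAU had 0.25 and 0.28, against −0.02, 0.0025 and 0.02 (lowest, median, highest) in wild type, and UAC had 0.10 and 0.15, against −0.04, 0.0019 and 0.03. Both lay above every wild-type library, with changes of 0.26 ± 0.0203 (adjusted p = 4e-18), the largest rise of UAU in any strain, and 0.13 ± 0.0214 (adjusted p = 4.07e-06). UAU rose more than UAC (difference 0.14 ± 0.0204, adjusted p = 6.64e-08). The computed frequencies in pus7D were −0.0088 for UAU and −0.00385 for UAC. UAC rose most in trm112D, by 0.18 (adjusted p = 2.12e-10).

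The cysteine codons fell in mod5D, whose enzyme modifies A37 of Cys-GCA, by 0.22 ± 0.0358 at UGU and 0.37 ± 0.0303 at UGC (adjusted p = 1.9e-06 and 6.79e-17). UGC had −0.32 and −0.42 in the mod5D libraries, against −0.05, 0.003 and 0.03 (lowest, median, highest) in wild type, so the groups did not overlap. UGU fell by nearly the same amount in trm112D, with −0.24 and −0.20 (adjusted p = 1.33e-06), where UGC was at −0.00093. UGU rose most in dus1D, with 0.33 and 0.30, against −0.05, −0.0099 and 0.07 in wild type (change 0.31 ± 0.0358, adjusted p = 6.21e-11). UGC rose most in sit4D, by 0.25 (adjusted p = 8.21e-10). UGU and UGC also rose in trm82D, by 0.19 and 0.13, and in trm8D, by 0.16 and 0.09, the strains without either subunit of the methyltransferase that makes 7-methylguanosine in the variable loop. The call of UGC in trm8D was lost with the processing set as a term (adjusted p = 0.143).

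UGG, the only tryptophan codon, was called higher in 15 strains and lower in 1 of 57, where 12.1% of pairs over all codons were higher and 9.81% lower. Its median change over the 57 strains was 0.12. Strains of a processing set share the error of their wild-type libraries, so a common shift of the strains cannot be told from that error. The wild-type values of UGG were the most spread of the 13 codons, with a lowest of −0.20, a median of −0.0206 and a highest of 0.16 at the A site. The largest rises were in gon7D, with 0.63 and 0.80 (change 0.72 ± 0.0915, adjusted p = 1.88e-09), and bud32D, with 0.69 and 0.44 (0.57, adjusted p = 1.02e-06). Gon7 and Bud32 belong to the KEOPS complex, which makes threonylcarbamoyladenosine at position 37 of tRNAs that read codons beginning with A, and cgi121D, which lacks a further subunit, gave 0.31 (adjusted p = 0.0105). The only fall was in trm112D, with −0.36 and −0.49 (−0.42 ± 0.0915, adjusted p = 0.000308). The strains trm7D, trm732D and rtt10D, which lack an enzyme or partner for the riboses 32 and 34 of Trp-CCA, had 0.13, 0.14 and −0.03 and were not called (adjusted p = 0.382, 0.317 and 0.896). In mod5D UGG was at 0.12 and not called, although Trp-CCA has A at position 37. In 7 of the 15 strains with a rise the call was lost with the processing set as a term.

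On a list of 80 pairs of a codon and a strain that lacks an enzyme or partner acting on a tRNA of the codon, 36 were called at the A site (20 higher and 16 lower), which is 45.0%, where 21.0% of the other 661 pairs of codons beginning with U were called and 21.9% over all codons. The list holds UUG also under Leu-UAA and UCG also under Ser-UGA, by wobble. It leaves out several enzymes that act on many tRNAs, such as Trm1, Pus3, Pus4, the dihydrouridine synthases and Trm8 with Trm82, and holds Trm4 with UUG alone. It was drawn up with earlier results of these data known, and its pairs share tRNAs and strains, so the shares are a description of that list. Of the pairs in the anticodon loop 28 of 70 were called, and of those outside it 8 of 10. The pairs outside the loop all come from tan1D and trm44D, and every tan1D pair was called, so these shares do not compare the regions alone. The median size of a change was 0.0898 over the 80 pairs and 0.0402 over the other pairs.

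By strain, the number of the 13 codons called at the A site is set beside the share called over all 61 codons, for the strains with 6 or more. In trm1D 9 of 13 were called, all lower, where 59.0% of its 61 codons were called. In trm112D 9 were called (72.1% of all codons), in sit4D 9 (60.7%), in gon7D 8 (68.9%), in tan1D 7 (55.7%), in dus1D 7 (37.7%) and in elp4D and pus4D 6 each (41.0% and 27.9%). In pus3D 9 were called, 8 of them higher (37.7% of all codons). In mod5D the 8 codons called, all lower, were those of serine, tyrosine and cysteine, whose tRNAs its enzyme modifies, and 21.3% of all codons were called. In trm1D the 10 codons whose tRNA has G at position 26 ran between −0.72 and 0.04 and 8 were lower, the tyrosine codons being the exceptions, while of the 3 codons of cysteine and tryptophan, with another base there, UGU was lower (−0.15).

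At the P site 115 of the 741 pairs were called higher and 69 lower, or 24.8% in all, where 22.5% were called over all codons (12.9% higher and 9.61% lower). With the processing set as a term, 16.6% were called. The 3 largest changes were falls in trm1D. UUA had −0.61 and −0.73 in trm1D, against −0.03, −0.0005 and 0.03 (lowest, median, highest) in wild type (change −0.67 ± 0.0255, adjusted p = 1.83e-35). UUC had −0.60 and −0.57, against −0.07, −0.0139 and 0.08 in wild type, and UUU −0.58 and −0.53, against −0.12, 0.0045 and 0.07. All trm1D libraries lay below every wild-type library. The tyrosine codons fell there as well, by 0.41 at UAC and 0.34 at UAU, although they had not moved at the A site. The largest changes in other strains were those of the cysteine codons in trm8D and trm82D, where UGC was at −0.53 ± 0.0445 and −0.48 and UGU at −0.48 ± 0.0364 and −0.38 (adjusted p = 2.55e-16, 1.3e-14, 1.19e-18 and 5.84e-14). These falls stand opposite the rises of the same codons at the A site in both strains.

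Trm4 forms 5-methylcytidine at position 34 of Leu-CAA, the only Trm4 site on the list of pairs. UUG was at 0.11 at the A site of trm4D, a call that was lost with the processing set as a term (adjusted p = 0.0886), with centring (0.08, adjusted p = 0.119) and without wild-type library 9 (0.10, adjusted p = 0.0532), and at −0.19 ± 0.0234 at the P site (adjusted p = 8.71e-10). UUA, read by Leu-UAA, was at 0.09 at the A site and not called, and lower at the P site, by 0.29 ± 0.0255 (adjusted p = 9.89e-16). Of 77 pairs called at both the A and the P site, 40 moved in the same direction and 37 in opposite ones. Across the 741 pairs the A-site and P-site changes had a Pearson r of 0.0977, given as a description because the sites share libraries and mRNAs.

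At the E site changes were smaller. None of the 741 pairs moved by more than 0.2, and 93 were called (37 higher and 56 lower), or 12.6%, where 11.1% were called over all codons (4.46% higher and 6.67% lower). With the processing set as a term 6.73% were called. The 3 largest were falls of UGC and UGG in pus3D, by 0.19 ± 0.0316 and 0.18 ± 0.025, and of UGC in sap190D, by 0.16 (adjusted p = 1.33e-06, 1.42e-08 and 6.84e-05). UGC accounted for 16 of the 56 lower pairs and was called higher in no strain, and its median change over the 57 strains was −0.06. Its wild-type values at the E site had a lowest of −0.08, a median of 0.0075 and a highest of 0.07, the widest spread of the 13 codons there. A total of 83 pairs were called at the A site and at neither of the other sites.

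The A-site change minus the E-site change in the same library cancels what both sites share, such as a larger amount of mRNA with the codon. This difference was called in 200 of 741 pairs, 102 higher and 98 lower, against 64 and 78 with the processing set as a term and 76 and 97 when each library was centred on its median codon. In the fit without either, 23.6% were called over all codons and 27.0% among the codons beginning with U. It was called in the same direction for 84% of the pairs called at the A site. The difference contains the A-site value, and E-site changes were smaller, so much of that share follows from the A-site calls themselves. The 3 largest differences were UUG and UUA in tan1D, at −1.23 ± 0.0399 and −1.21 ± 0.0696, and UUA in pus4D, at −0.89 (adjusted p = 2.52e-40, 1.2e-24 and 1.06e-17).

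Differences between synonymous codons compare codons that often share a tRNA, and 49 were called for the 6 pairs that begin with U, which is 14.3%, where 18.4% were called over all 29 pairs of such codons. With the processing set as a term 32 were called (9.52%). UUA minus UUG, a pair served by both Leu-UAA and Leu-CAA, gave 18 of the 49. UUU minus UUC gave 8, UAU minus UAC 7, UGU minus UGC 7, UCA minus UCG 6 and UCU minus UCC 3. Wherever both codons of a pair were called at the A site they moved in the same direction, in 8 strains for UUU with UUC, 17 for UAU with UAC, 8 for UGU with UGC, 5 for UCU with UCC, 5 for UUA with UUG and 7 for UCA with UCG.

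Averages over strains of 1 pathway were tested for the 13 codons at the 3 sites, 39 values each. The SE of such a mean measures the spread between libraries of a strain, not between strains, so a call does not mean that every strain moved. The Elongator mean was called in 16 (10 higher and 6 lower, against 7 higher and 8 lower when each library was centred on its median codon), where 50.8% were called over all codons and sites, and the highest was UUA at the A site, at 0.23 ± 0.0312 (adjusted p = 9.91e-09), with its libraries between 0.07 and 0.36 and a median of 0.23. The thiolation mean, of 5 strains without an enzyme of wobble-uridine thiolation, was called in 14 (39.3% over all codons and sites). None of the tRNAs printed above is a known substrate of that pathway, and UGG had its largest change, 0.15 ± 0.0506 at the A site (adjusted p = 0.0159), a call that was lost with the processing set as a term (adjusted p = 0.1185), without the first libraries (0.11, adjusted p = 0.0892) and without ncs6D (0.11, adjusted p = 0.116) or uba4D (0.13, adjusted p = 0.0536). The wybutosine mean was called in 10 (20.8% over all codons and sites), led by UUU at the P site at 0.27 ± 0.0238 and at the A site at 0.23 ± 0.0271 (adjusted p = 1.32e-15 and 6.94e-11). For UUU at the A site its libraries ran between −0.02 and 0.45, and tyw4D was not called. The mean of the 3 strains of the Trm7 complexes was called in 4 (4.92% over all codons and sites), with UUU at the A site at 0.14 ± 0.0297 (adjusted p = 0.00023). Its libraries ran between −0.02 and 0.25 there, and trm732D (0.0064) was not called. With the processing set as a term 27 of the 44 pathway values were called.

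The frequency computed from footprint densities moved little in most strains. Its median size was 0.0147 over the 741 pairs, where the observed A-site changes had a median size of 0.0421, and 0.0188 over the pairs called at the A site, where the observed median was 0.143. Observed and computed changes had the same sign in 50.9% of the called pairs. Across all 741 pairs the Pearson r between them was 0.0293 at the A site, −0.036 at the P site and −0.0253 at the E site, given as a description because both come from the same libraries. Whether the authors' normalisation removes the codon content of the mRNAs is not stated in the sources used here.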

How the data were processed

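Per the labels, monosome footprints of cycloheximide-treated yeast were sequenced. For 126 libraries the authors deposited, for each site and codon, a log2 ratio of its frequency to wild type, and the normalisation and the rule that places codons are not stated in the sources used here. Over the wild-type libraries 1 to 6, 7 to 9 and 11 to 14 the values average to a ratio of 1, and a deposited table of ratios of footprint to RNA values linked 56 strains to these 3 processing sets (11, 39 and 6 strains), while dus2D matched none. The footprint densities that the authors deposited per gene are in RPKM. The submitters' processing notes name TopHat2 2.0.12, HOMER 4.6 and SAMtools, and sacCer3 as the build. Depths recovered from the RPKM values were 0.81 to 16.3 M reads (median 3.11 M), with 96.4% to 98.4% of low values whole within 0.1 reads. The codon table holds no counts, so no interval for counting error is given. It lists trm12D under the synonym tyw2D, wild-type library 10 has no column in it, and 14 columns of the deposited tables were not used.

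Changes against all 13 wild-type libraries were fitted with limma 3.58.1 in R 4.3.3 (empirical Bayes with a trend, 1 coefficient per strain, 183 codon and site rows), without the processing set or a replicate block. P-values were adjusted by the Benjamini-Hochberg method over all rows and strains, separately for pathway means, A minus E differences and synonymous differences, with a threshold of 0.05. The method was tested on simulated data. Codon frequencies were computed from RPKM and coding sequences of R64 (the build of sacCer3) over 4245 genes whose RPKM averaged 10 or more, relative to the wild-type libraries of the same set. The codons and lists were chosen with earlier results of these data known. Codons in all cases were named, and strains by the pairs of enzyme and tRNA, by the largest called rise and fall of each codon at the A site, and by the 3 largest called changes at the P site, the E site and in A minus E, with both libraries on the same side of 0. The pairs of trm140D with UCU and UCC were dropped after position 32 of Ser-AGA was read. The synonymous differences were added after seeing the data. RNA-seq, drug-free and RiboMeth-seq libraries were not used here.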

Additional observations from a re-analysis of the deposited data

How the results depend on the processing

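No called value of a named pair changed sign under an alternative, and 15 uncalled ones did in 1 or more fits (27 values in all). With the processing set as a term, which adds the error of the set's own wild-type mean and omits dus2D, 18.0% of the pairs of a codon beginning with U and a strain were called at the A site, 16.6% at the P site, 6.73% at the E site, 19.5% for A minus E and 9.52% of the synonymous differences, and 27 pathway means were called (Elongator 12, thiolation 8, wybutosine 5, Trm7 complexes 2). With the library number as a replicate block the shares were 12.3%, 14.7%, 3.78%, 15.0% and 8.48%, 7 pathway means were called (Elongator 2, thiolation 1, wybutosine 4, Trm7 complexes 0), and 30 of the 80 enzyme and tRNA pairs were called. Each wild-type library numbered above 2 was alone in its block, so in that fit it did not inform the wild-type mean. The lower shares cannot tell the loss of these wild-type libraries from an effect of the number. Of the named values 45 lost their call with the block, among them the Trm7 mean of UUU at the A site (0.16, adjusted p = 0.0511). The deviations of libraries with the same number correlated between −0.424 and 0.798 over 55 strains (median 0.33, 42 over 0.1). The main fit did not take the numbers as pairing, because the correlation was not positive in every strain. In most strains, however, libraries with the same number shared part of their deviation. The p-values of the main fit take all libraries as independent and do not allow for this.

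Leaving out each wild-type library, or the first or the second library of every strain, gave 23.2% to 31.3% called at the A site, 23.2% to 31.9% at the P site, 12% to 19.4% at the E site, 25.9% to 31.3% for A minus E and 13.7% to 23.4% of the synonymous differences. It gave 34 to 43 enzyme and tRNA pairs and 39 to 69 pathway means (Elongator 13 to 19, thiolation 12 to 21, wybutosine 9 to 16, Trm7 complexes 3 to 13). The second libraries left out gave 123 higher and 106 lower calls at the A site. For A minus E the calls were 64 higher and 78 lower with the processing set, 76 and 97 with centring, 47 and 64 with the block, and 110 and 122 without the first libraries. The upper values at the E site, among synonymous differences and among pathway means came from leaving out the first library of every strain. Fits with 1 library a strain assume that it varies as wild type does. For the Trm7 complexes, adjusting within each contrast gave 2 calls, array weights 11, leaving out trm7D 1 and leaving out trm732D 9. Elsewhere, adjusting within strains, centring on the median codon, a robust fit, a fit per site, array weights and leaving out the 4 libraries under 1.6 M reads kept every count within 1.5 times. The last 2 of these were chosen after seeing the data. A minus P in place of A minus E gave 29.4%. With all genes in the computed frequency its median size was 0.0149 in place of 0.0147.

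Of 3825 values of named pairs under alternatives, 170 lost their call, 16 gained one, 3 moved by more than their error and 3636 did neither. Leaving out the 4 shallowest libraries, 1 each of trm112D, trm12D, ncs2D and trm10D, took the call from 2 named values. UGG had the widest wild-type spread at the A site, and its smallest called rise there was 0.29.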
